A study of Mus musculus with 56 samples.

Results

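The enzymes, carriers and regulators of glycolysis, lactate export and the pentose phosphate pathway were followed through 33 genes, chosen by their role in the pathway. Earlier results of these data were known when the genes were chosen. They stand for 8 steps, from glucose uptake to the carbon shuffling of the pentose phosphate branch. All 33 were listed in each of the 3 kinds of table, among 23420 genes in the bulk count table, 23356 in the bulk FPKM files and 27998 in the single-cell matrix.

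The series held 56 samples of mouse microglia, which are macrophages that live in brain tissue. IL-33 and Medium were primary cultures (7 libraries each) from B6 wild type pups aged 5 to 8 days, kept 7 to 9 days in vitro, with IL-33 at 200 ng/ml for 3 hours or medium alone. The culture protocol also names a pretreatment with GSK-J4, and the labels do not say which cultures had it. Tau-GFP Plus and Tau-GFP Neg (8 libraries each) were microglia sorted from the cortex of B6/129 pups that all carried the Mapttm1(EGFP)Klt allele, which puts EGFP under the Mapt (tau) promoter of neurons, so that GFP in a microglial cell stands for material it took up. The labels give day 10 for these pups and the design text day 9. TMRM high (10 libraries) and TMRM low (8 libraries) were wild type B6/C57 microglia of P9 cortex, sorted by their staining with TMRM, a dye held in polarised mitochondria. The single-cell libraries (2 of each) came from the cortex of wild type B6 mice at P28 and at P9, and from ST2 KO and ST2 Het pups at P9, where ST2 is the IL-33 receptor encoded by Il1rl1. All of the sorted single cells were gated as CD45int CD11bint.

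Glycolysis splits glucose into pyruvate, yielding ATP and NADH. Lactate dehydrogenase turns pyruvate into lactate and restores NAD+, monocarboxylate carriers move lactate across the membrane, and the pentose phosphate branch diverts glucose 6-phosphate into NADPH and ribose. In macrophages, including microglia, genes of these steps are known to rise with inflammatory activation and low oxygen, through factors such as HIF-1 and MYC.

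Summed counts ran from 7709047 to 11826389 in the bulk count libraries and from 4080229 to 10529115 UMIs over the microglia-like cells of the single-cell libraries. The FPKM files give no depth. All 10 microglia markers were detected in the 3 bulk comparisons. Of 15335 cells kept, 14391 fell in 13 microglia-like clusters, and 137 barcode sequences were shared between libraries. The library Tau-GFP Plus 3 stood apart through endothelial markers, TMRM low 2 and 7 through choroid plexus markers, and the file of TMRM high 8 lacked 500 symbols, including Pgk1 and Pdk3. The labels do not say that libraries of a group came from separate animals, so p-values measure the spread between libraries, which may be technical.

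A gene was called higher or lower at a Benjamini-Hochberg adjusted p under 0.05 over all genes tested. Of the 29 genes tested in all of them, 8 (Gpi1, Aldoa, Tpi1, Gapdh, Pgk1, Pgam1, Eno1 and Ldha) were called higher in IL-33 cultures, in Tau-GFP Plus cells and in TMRM high cells, where 0.727% of the 9489 genes tested in all of them were. Of these 8, 6 were called lower at P28 than at P9, a share near that among all genes with the same bulk pattern, of which 44 of 64 were. In all, 29 genes were called in at least 1 of the 5 comparisons. Slc2a3, Hk1 and Rpia were tested and never called, and Pdk4 passed no low-value filter.

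**Figure D1:**
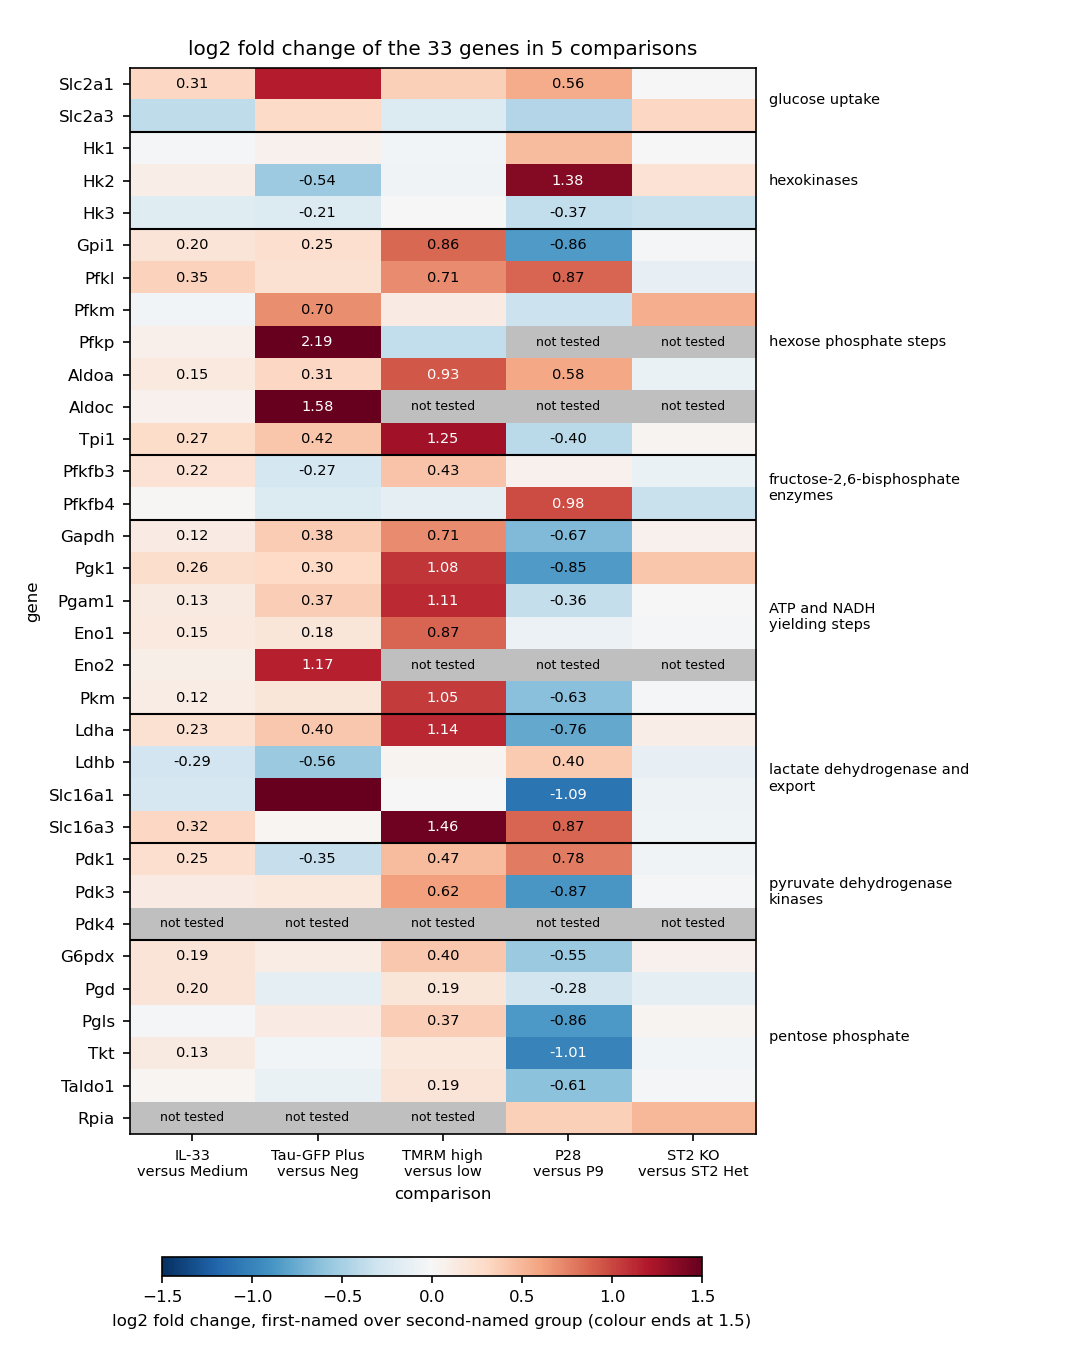
Log2 fold changes of the 33 genes, ordered by step from top to bottom, in the 5 comparisons, with the first-named group over the second, where cells with a printed value passed an adjusted p under 0.05, coloured cells without one did not, and grey cells were not tested. Gpi1, Aldoa, Tpi1, Gapdh, Pgk1, Pgam1, Eno1 and Ldha carry positive values in all 3 bulk comparisons, at P28 Aldoa is positive, Eno1 carries no value and the others are negative, and no gene carries a value in ST2 KO against ST2 Het.

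In cultures given IL-33, transcripts of 4 of 7 hexose phosphate genes, of 5 of 6 genes of the ATP and NADH yielding steps and of Slc2a1, Ldha and Slc16a3 rose by small amounts, while Ldhb fell. The other glucose carrier, Slc2a3 (log2 fold change -0.38), and the other lactate carrier, Slc16a1 (-0.25), were not called. Of the 31 genes tested, 17 were called higher, where 4.22% of all 10815 genes tested were, and 1 was called lower, where 3.54% were. In 10 of them every IL-33 library lay above every Medium library, a separation found in 2.15% of all genes, and in none did the groups separate the other way, as 1.4% of all genes did. The median log2 fold change was 0.13 over these genes and -0.01 over all genes. In bulk samples, fewer cells of a type and less RNA per cell cannot be told apart.

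Slc2a1, the GLUT1 glucose carrier, ranged from 75.1 to 93.1 CPM (counts scaled to the library total, median 77.4) in IL-33 cultures and from 58.6 to 70.1 CPM (median 64.0) in Medium cultures. Every IL-33 library was above every Medium library, and the log2 fold change was 0.31 ± 0.06 (SE; adjusted p = 0.00149, edgeR's quasi-likelihood test). Slc2a3, the GLUT3 carrier, averaged 6.34 ± 1.97 CPM in IL-33 cultures and 8.33 ± 2.77 CPM in Medium cultures (SD, n = 7 each) and was not called. The hexokinases, which trap glucose in the cell as glucose 6-phosphate, were not called. Hk2 averaged 88.7 ± 9.20 CPM in IL-33 cultures and 82.9 ± 6.76 CPM in Medium cultures. Hk3 averaged 125 ± 10.3 CPM in IL-33 cultures and 142 ± 9.65 CPM in Medium cultures, a log2 fold change of -0.18 with an adjusted p of 0.0501 by edgeR's quasi-likelihood test. It was called lower with another scaling, with DESeq2 and with a stricter filter.

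The largest change among the hexose phosphate steps was in Pfkl, the liver-type phosphofructokinase that commits sugar to glycolysis. It ranged from 249 to 283 CPM (median 270) in IL-33 cultures and from 192 to 224 CPM (median 211) in Medium cultures, with no overlap (log2 fold change 0.35 ± 0.04, adjusted p = 1.04e-05, edgeR). Pfkm and Pfkp, the muscle and platelet forms, stayed uncalled at 9.40 and 41.9 CPM in IL-33 cultures, against 9.71 and 39.7 CPM in Medium cultures. Gpi1, which turns glucose 6-phosphate into fructose 6-phosphate, averaged 655 ± 27.2 CPM in IL-33 cultures and 571 ± 18.7 CPM in Medium cultures. Tpi1, which interconverts the triose phosphates, averaged 845 ± 45.1 CPM in IL-33 cultures and 700 ± 27.3 CPM in Medium cultures. Both separated the groups completely, with log2 fold changes of 0.20 and 0.27. Aldoa, the aldolase that splits fructose 1,6-bisphosphate, was also higher in every IL-33 library (log2 fold change 0.15). Pfkfb3, which makes the phosphofructokinase activator fructose 2,6-bisphosphate, was called higher (0.22), and its relative Pfkfb4 was not (0.01).

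All 5 abundant enzymes of the ATP and NADH yielding steps were called higher. Pgk1, the first ATP-yielding kinase, averaged 758 ± 41.1 CPM in IL-33 cultures and 631 ± 19.3 CPM in Medium cultures (log2 fold change 0.26 ± 0.04, adjusted p = 4.33e-05, edgeR), without overlap. Gapdh, Pgam1, Eno1 and Pkm, the dehydrogenase, mutase, enolase and pyruvate kinase of this stretch, had log2 fold changes from 0.12 to 0.15, with overlapping groups. Eno2, the neuronal enolase, was not called.

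The lactate dehydrogenase genes moved apart. Ldha, the form that favours lactate production, ranged from 1781 to 2161 CPM (median 1972) in IL-33 cultures and from 1611 to 1746 CPM (median 1681) in Medium cultures. Its groups did not overlap, and the log2 fold change was 0.23 ± 0.04 (adjusted p = 0.000141, edgeR). Ldhb, the heart form that favours pyruvate, ranged from 63.9 to 83.8 CPM (median 73.4) in IL-33 cultures and from 78.3 to 95.1 CPM (median 88.7) in Medium cultures. It was called lower with a small overlap of the groups (log2 fold change -0.29 ± 0.06, adjusted p = 0.00577, edgeR). Slc16a3, the lactate exporter MCT4, ranged from 187 to 234 CPM (median 218) in IL-33 cultures and from 155 to 183 CPM (median 175) in Medium cultures. Every IL-33 library exceeded every Medium library (log2 fold change 0.32 ± 0.05, adjusted p = 0.000327, edgeR). Slc16a1, the carrier MCT1, was low at 10.2 ± 2.09 CPM in IL-33 cultures and 12.02 ± 1.72 CPM in Medium cultures and was not called.

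**Figure D2:**
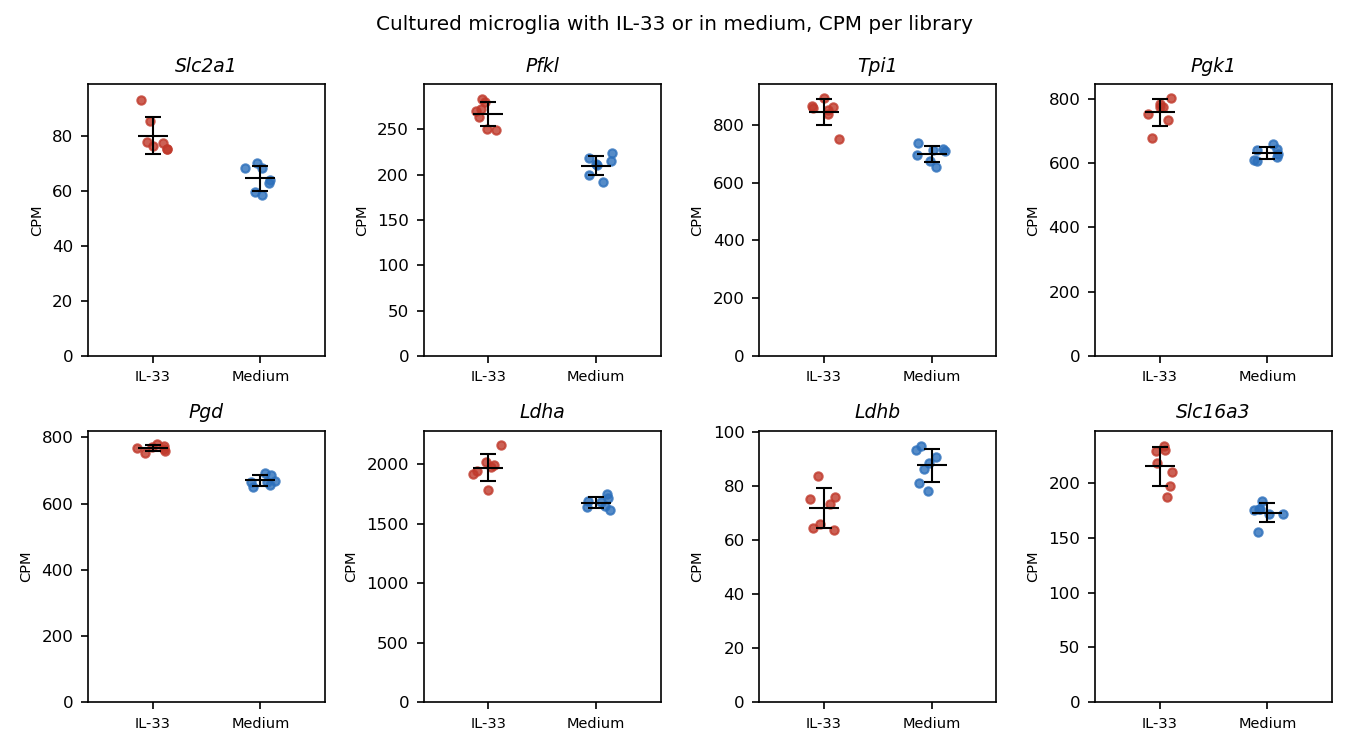
Normalised level (CPM, linear axes from 0) of the named genes in each IL-33 culture (left) and each Medium culture (right), 7 points per group, with bars at the mean ± SD. Slc2a1, Pfkl, Pgk1, Ldha and Slc16a3 do not overlap between the groups, and Ldhb has the lower mean with IL-33, with overlapping points.

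Among the pyruvate dehydrogenase kinases, which inhibit pyruvate dehydrogenase, Pdk1 was called higher (96.1 ± 9.95 CPM in IL-33 cultures and 81.0 ± 5.63 CPM in Medium cultures), and Pdk3 was not. In the pentose phosphate branch the oxidative enzymes G6pdx and Pgd and the transketolase Tkt were called higher. G6pdx, the first enzyme of the branch, averaged 177 ± 15.3 CPM in IL-33 cultures and 155 ± 12.1 CPM in Medium cultures, with overlap (log2 fold change 0.19, adjusted p = 0.046, edgeR). Tkt averaged 485 ± 14.8 CPM in IL-33 cultures and 442 ± 13.6 CPM in Medium cultures, without overlap (log2 fold change 0.13). Pgd, the step that makes ribulose 5-phosphate, averaged 767 ± 9.35 CPM in IL-33 cultures and 670 ± 15.5 CPM in Medium cultures, without overlap (log2 fold change 0.20 ± 0.03, adjusted p = 3.78e-05, edgeR). Pgls and Taldo1, the lactonase and the transaldolase, had log2 fold changes of -0.02 and 0.03. Pdk4 and the isomerase Rpia had too few counts to be tested here and in the Tau-GFP libraries. Of 87 other genes of the pathway in 7 lists, 64 were tested, 7 were called higher and 5 lower, where 4.22% and 3.54% of all genes were. Those called higher included the sugar carrier Slc2a6 (log2 fold change 0.76), the glycogen branching enzyme Gbe1 (0.61) and the oxygen-regulated factor Hif1a (0.47), and those called lower included the ribose phosphate enzyme Prps2 (-0.29) and the sugar carrier Slc2a8 (-0.27). The summed microglia markers were 6724 to 7666 CPM in IL-33 cultures and 7085 to 8059 CPM in Medium cultures, and the 18 cell cycle markers summed to 491 to 624 CPM in IL-33 cultures and 519 to 761 CPM in Medium cultures, so both overlapped.

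Microglia with high TMRM staining carried far more transcript of lower glycolysis and of the lactate exporter than microglia with low staining, and the hexokinases and Ldhb were not called. These values are FPKM, fragments per kilobase of transcript scaled to the library, compared as log2(FPKM + 1) with limma, a scale that understates the change of low genes. Of 29 genes tested, 18 were called higher, where 20.4% of all 10714 genes tested were, and none was called lower, where 9.84% were. In 11 genes every TMRM high library lay above every TMRM low library, against 5.17% of all genes, and in none the other way, against 1.68%. The median log2 fold change was 0.40 over these genes and 0.06 over all genes. With median-of-ratios scaling the calls over all genes split into 1571 higher and 1632 lower, in place of 2189 and 1054, and 15 of the 29 genes were higher.

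The carrier for export changed most. Slc16a3 ranged from 30.6 to 41.5 FPKM (median 34.9) in TMRM high libraries and from 10.3 to 15.4 FPKM (median 12.1) in TMRM low libraries. The groups were far apart, with a log2 fold change of 1.46 ± 0.08 (adjusted p = 2.23e-11, limma). Slc16a1 had 5.42 ± 1.26 FPKM in TMRM high libraries (SD, n = 10) and 5.57 ± 1.77 FPKM in TMRM low libraries (SD, n = 8) and a log2 fold change of 0.00, with a 95% interval from -0.37 to 0.37. Slc16a3 therefore made up 86.8% of the summed FPKM of these carriers in TMRM high libraries and 69.4% in TMRM low libraries.

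Ldha ranged from 468 to 647 FPKM (median 506) in TMRM high libraries and from 210 to 317 FPKM (median 221) in TMRM low libraries, without overlap (log2 fold change 1.14 ± 0.08, adjusted p = 3.29e-09, limma). Ldhb ranged from 247 to 306 FPKM (median 265) in TMRM high libraries and from 203 to 346 FPKM (median 258) in TMRM low libraries. These groups overlapped, with a log2 fold change of 0.04 and a 95% interval from -0.15 to 0.23. The ratio of Ldha to Ldhb, both per length, averaged 1.93 (1.64 to 2.11) in TMRM high libraries and 0.898 (0.815 to 1.03) in TMRM low libraries, so Ldha was the more abundant form in every TMRM high library.

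Between glucose 6-phosphate and pyruvate, 4 of 6 hexose phosphate genes tested and all 5 tested genes of the ATP and NADH yielding steps were called higher, and Pfkm (log2 fold change 0.12) and Pfkp (-0.37) were not called. Tpi1 ranged from 280 to 401 FPKM (median 303) in TMRM high libraries and from 109 to 197 FPKM (median 119) in TMRM low libraries, a log2 fold change of 1.25 ± 0.10 (adjusted p = 8.07e-09, limma). Pgam1 ranged from 189 to 244 FPKM (median 222) in TMRM high libraries and from 91.3 to 126 FPKM (median 92.9) in TMRM low libraries, a log2 fold change of 1.11 ± 0.07 (adjusted p = 8.72e-10, limma). Neither gene's groups overlapped. Pkm, which makes pyruvate, averaged 492 ± 30.8 FPKM in TMRM high libraries and 240 ± 43.9 FPKM in TMRM low libraries (log2 fold change 1.05). Pgk1, with values in 9 of the TMRM high libraries, averaged 164 ± 11.6 FPKM there and 78.2 ± 14.1 FPKM in TMRM low libraries (log2 fold change 1.08). Gpi1, Pfkl, Aldoa, Gapdh and Eno1 had log2 fold changes of 0.86, 0.71, 0.93, 0.71 and 0.87, and none of their groups overlapped. Gapdh was the most abundant of the 33 by FPKM in both groups, at 1177 ± 91.9 in TMRM high libraries and 721 ± 91.2 in TMRM low libraries.

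**Figure D3:**
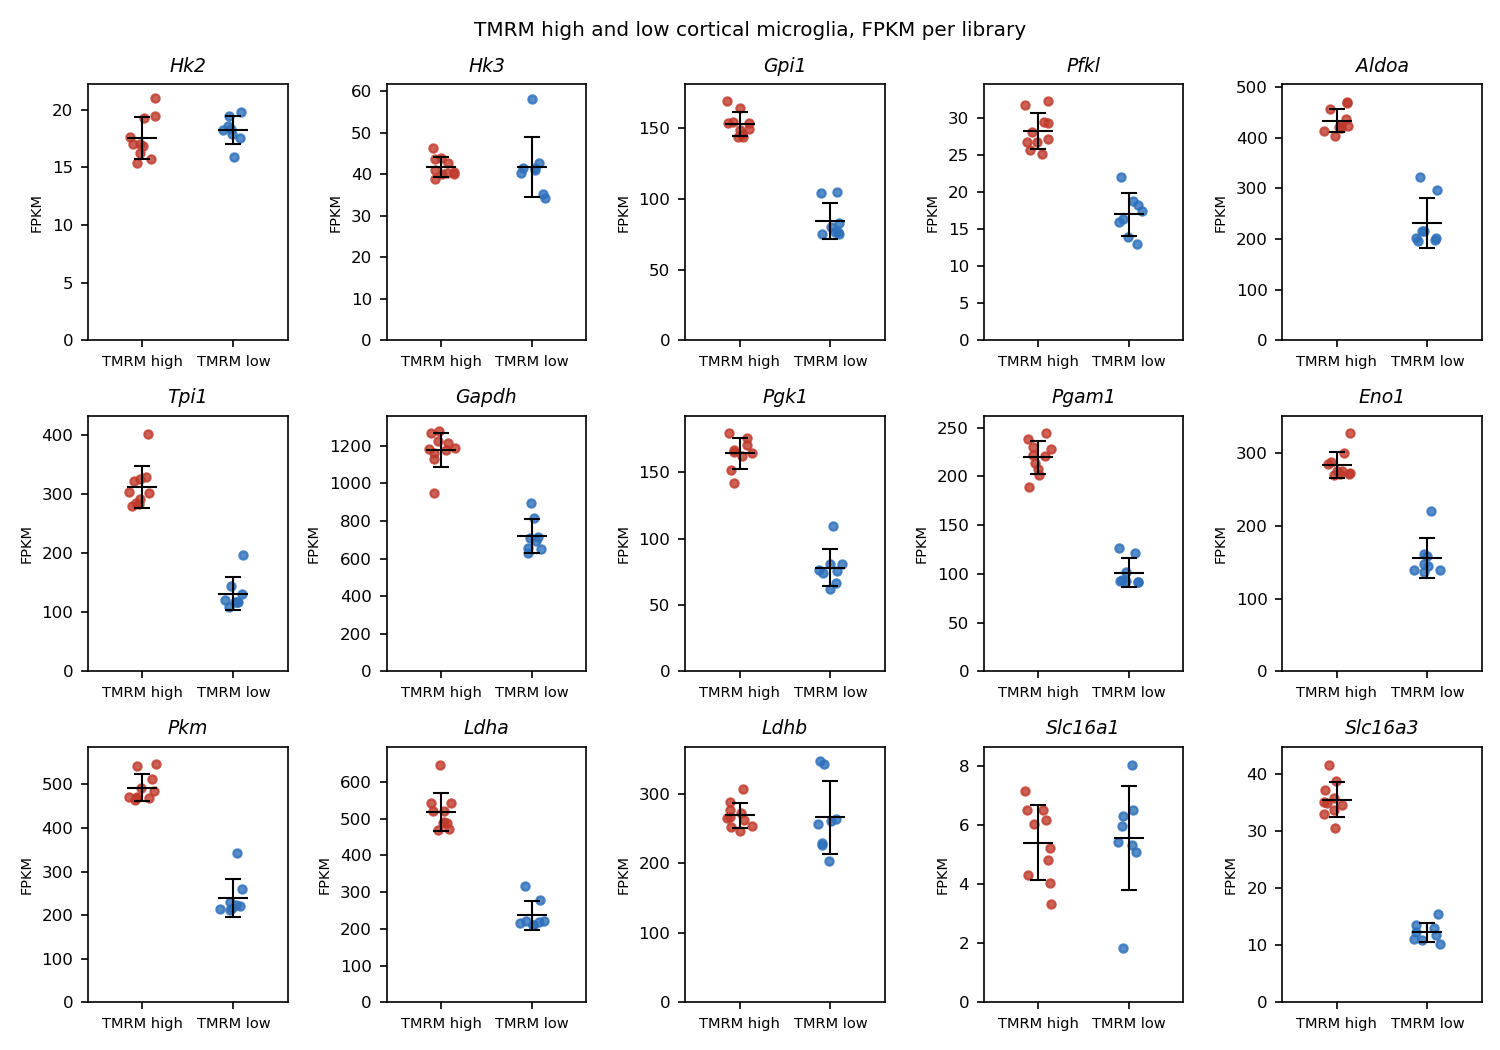
Level in FPKM (linear axes from 0) in each TMRM high library (left, 10 points; 9 for Pgk1) and each TMRM low library (right, 8 points), with bars at the mean ± SD. Slc16a3, Ldha, Tpi1 and Pgam1 separate completely, while Ldhb overlaps at 247 to 306 FPKM in TMRM high and 203 to 346 FPKM in TMRM low libraries.

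The carriers and hexokinases at the entry were not called. Hk3, which made up 67.5% of hexokinase FPKM in TMRM high libraries and 66.2% in TMRM low libraries, had a log2 fold change of 0.01 (95% interval -0.15 to 0.18). Hk2 had 17.6 ± 1.81 FPKM in TMRM high libraries and 18.2 ± 1.20 FPKM in TMRM low libraries (log2 fold change -0.05, interval -0.19 to 0.09). With median-of-ratios scaling the signs of Hk3, Ldhb and Slc16a1 turned negative, and none of these was called under either scaling. Slc2a1 was at 11.6 ± 1.62 FPKM in TMRM high libraries and 9.07 ± 2.78 FPKM in TMRM low libraries and missed the threshold (log2 fold change 0.36, adjusted p = 0.0523, limma), while without TMRM low 2 and 7 it was called at 0.42. The main sugar carrier by FPKM was Slc2a5, the fructose carrier GLUT5, which is not one of the 33 genes. It averaged 47.0 ± 2.80 FPKM in TMRM high libraries and 86.9 ± 7.42 FPKM in TMRM low libraries (log2 fold change -0.87), and Slc2a6 moved the other way, at 15.9 ± 1.31 FPKM in TMRM high libraries and 6.59 ± 1.34 FPKM in TMRM low libraries.

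Regulators and the pentose phosphate branch changed by less. Pdk3 averaged 22.02 ± 1.78 FPKM in 9 TMRM high libraries and 14.4 ± 3.67 FPKM in TMRM low libraries, and Pdk1 averaged 15.7 ± 1.31 FPKM in TMRM high libraries and 11.3 ± 2.63 FPKM in TMRM low libraries. Both were called higher. Pfkfb3 was called at a log2 fold change of 0.43. Its call was lost without TMRM low 2 and 7 (0.25), with median-of-ratios scaling (0.33) and with no low-value filter. The oxidative enzymes G6pdx (0.40), Pgls (0.37) and Pgd (0.19) and the transaldolase Taldo1 (0.19) were called higher with overlapping groups, and Tkt (0.15) was not called. With median-of-ratios scaling the calls of Pgd and Taldo1 were lost, both at 0.09, and that of Pgd was also lost without TMRM low 2 and 7 (0.17) and without TMRM high 8 (0.18). Slc2a3, Hk1, Pfkm, Pfkp and Pfkfb4 were tested and not called, with log2 fold changes from -0.37 to 0.12, and Aldoc, Eno2, Pdk4 and Rpia were under the mean of 1 FPKM needed for the test.

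Of the 87 other pathway genes, 63 were tested, 20 were called higher and 7 lower, where 20.4% and 9.84% of all genes were. In the glycogen list, 6 of the 9 genes tested were higher. Slc2a6 (1.17), the oxygen sensor Egln3 (1.14) and the glycogen primer Gyg (1.07) led the higher side, and the glucose-responsive factor Mlxipl (-0.97), Slc2a5 (-0.87) and the muscle enolase Eno3 (-0.63) the lower. Other lists moved with the sort. The 18 cell cycle markers, all detected, summed to 843 to 955 FPKM in TMRM high libraries and 481 to 635 FPKM in TMRM low libraries. The 9 neutrophil markers, of which 1 was at 0 in every TMRM low library, summed to 0.431 to 785 FPKM in TMRM high libraries and 651 to 2326 FPKM in TMRM low libraries. The 6 monocyte markers, 5 of them listed, summed to 3.75 to 16.3 FPKM in TMRM high libraries and 14.9 to 59.7 FPKM in TMRM low libraries. The 10 neuronal markers, all detected in both groups, summed to 2.38 to 4.68 FPKM in TMRM high libraries and 5.997 to 16.2 FPKM in TMRM low libraries, without overlap. The 11 immediate early genes summed to 3436 to 4681 FPKM in TMRM high libraries and 4782 to 5813 FPKM in TMRM low libraries. Choroid plexus markers reached 34007 FPKM in TMRM low 2 and 6287 FPKM in TMRM low 7, and without these 2 libraries 17 genes were called higher and none lower. The part of the other lists in the result was not tested.

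Promoter sequence was read for the genes of the pathway, called or not, among them Ldhb, which did not move with Ldha. RefSeq (GRCm38.p6) gave the stretch from 250 bases before to 50 after the start for 32 of the 33 genes. The letters ACGTG or GCGTG, the core bound by HIF-1, were searched on both strands. Several genes have more than 1 start, and a gene was counted when any of its promoters held a match. That was so in 90.6% of the 32 genes, in 46.7% of all 27025 genes with a promoter and in 70.3% of the 6990 genes tested in all 5 comparisons. Counted by promoter, 80.4% of 46 promoters of these genes and 43.8% of all 32851 promoters held one. CACGTG, the E-box bound by MYC, was found in 12.5% of the 32 genes and in 12.6% of the genes tested in all 5 comparisons. CACGTG reads the same on both strands and contains ACGTG on each, so it counts as 2 matches of the first motif. The promoters of these genes were richer in G and C (median 60.7%) than all promoters (52.7%). A match describes the letters only. A second promoter of Ldha, at chr7:46846832-46847131, holds 2 matches and no CACGTG and is not printed, and the other genes shown have 1 promoter each. The 5 promoters below, each written along its gene with either motif in capitals, are those of the exporter, of the first ATP-yielding kinase, of both lactate dehydrogenases and of Tpi1, which was higher in 3 comparisons and holds no match.
Ldha, chr7:46845554-46845853, plus strand, 7 matches including 2 of CACGTG: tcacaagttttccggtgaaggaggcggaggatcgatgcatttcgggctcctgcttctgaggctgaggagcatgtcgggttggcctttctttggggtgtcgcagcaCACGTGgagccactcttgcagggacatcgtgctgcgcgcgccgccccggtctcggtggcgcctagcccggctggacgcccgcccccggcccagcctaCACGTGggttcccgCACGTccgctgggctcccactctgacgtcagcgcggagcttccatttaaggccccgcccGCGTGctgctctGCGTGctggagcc
Pgk1, chrX:106186850-106187149, plus strand, 2 matches: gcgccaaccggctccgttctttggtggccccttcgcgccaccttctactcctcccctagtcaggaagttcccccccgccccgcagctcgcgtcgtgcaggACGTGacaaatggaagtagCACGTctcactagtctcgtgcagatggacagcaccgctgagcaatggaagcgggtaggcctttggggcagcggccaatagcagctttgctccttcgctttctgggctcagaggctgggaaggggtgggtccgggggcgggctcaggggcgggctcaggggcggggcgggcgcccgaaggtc
Slc16a3, chr11:120948817-120949116, plus strand, 2 matches: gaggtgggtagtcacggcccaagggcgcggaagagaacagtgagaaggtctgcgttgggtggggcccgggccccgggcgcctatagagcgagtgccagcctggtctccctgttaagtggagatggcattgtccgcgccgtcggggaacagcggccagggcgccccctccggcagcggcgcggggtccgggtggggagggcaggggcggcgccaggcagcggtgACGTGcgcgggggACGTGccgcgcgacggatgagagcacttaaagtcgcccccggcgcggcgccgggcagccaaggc
Ldhb, chr6:142507908-142508207, minus strand, 1 match: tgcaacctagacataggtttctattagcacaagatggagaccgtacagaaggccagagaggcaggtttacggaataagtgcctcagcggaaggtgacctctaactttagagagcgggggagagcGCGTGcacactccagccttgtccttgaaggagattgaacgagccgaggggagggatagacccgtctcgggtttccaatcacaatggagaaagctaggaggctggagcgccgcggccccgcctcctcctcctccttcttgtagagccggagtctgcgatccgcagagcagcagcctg
Tpi1, chr6:124814109-124814408, minus strand, 0 matches: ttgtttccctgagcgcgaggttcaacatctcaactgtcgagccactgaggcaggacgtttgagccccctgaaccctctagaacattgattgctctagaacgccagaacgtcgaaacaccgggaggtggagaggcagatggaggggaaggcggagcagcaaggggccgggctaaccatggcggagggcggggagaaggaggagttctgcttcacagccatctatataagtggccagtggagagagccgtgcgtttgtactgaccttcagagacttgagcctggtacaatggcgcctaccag

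In microglia that contained Tau-GFP, 6 of 7 hexose phosphate genes, 5 of 6 genes of the ATP and NADH yielding steps and Ldha were called higher, and hexokinases 2 and 3, Ldhb, Pfkfb3 and Pdk1 were lower. Among the higher genes, Pfkm, Pfkp, Aldoc and Eno2 were at low levels, where a gene can pass the low-count filter through its high group. Of 31 genes tested, 12 were called higher, where 20.7% of all 12138 genes tested were, and 5 lower, a share near the 16.9% over all genes. The groups separated upward in 3 genes and downward in 2, shares near the 6.82% and 4.46% of all genes. The median log2 fold change was 0.18 over these genes and 0.01 over all genes. No pentose phosphate gene was called among the 5 tested, whose log2 fold changes ran from -0.14 (Pgd) to 0.12 (Pgls).

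Hk2, the inducible hexokinase, ranged from 71.4 to 119 CPM (median 104) in Tau-GFP Plus libraries and from 124 to 172 CPM (median 146) in Tau-GFP Neg libraries. Every Plus library was below every Neg library, with a log2 fold change of -0.54 ± 0.11 (adjusted p = 0.000769, edgeR's quasi-likelihood test). Hk3 was called lower with overlap (148 ± 17.8 CPM in Tau-GFP Plus libraries and 171 ± 15.1 CPM in Tau-GFP Neg libraries, SD, n = 8 each), and Hk1 was not called. The call of Hk3 was lost without Tau-GFP Plus 3, where its log2 fold change was -0.17 in place of -0.21, and with a mean of at least 5 CPM required (-0.19).

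Tpi1 ranged from 198 to 236 CPM (median 212) in Tau-GFP Plus libraries and from 144 to 190 CPM (median 156) in Tau-GFP Neg libraries (log2 fold change 0.42 ± 0.06, adjusted p = 2.04e-05, edgeR). Gapdh ranged from 1159 to 1312 CPM (median 1255) in Tau-GFP Plus libraries and from 812 to 1046 CPM (median 958) in Tau-GFP Neg libraries (log2 fold change 0.38 ± 0.05, adjusted p = 1.75e-05, edgeR). Pgam1 ranged from 181 to 214 CPM (median 211) in Tau-GFP Plus libraries and from 143 to 175 CPM (median 162) in Tau-GFP Neg libraries (log2 fold change 0.37 ± 0.05, adjusted p = 1.95e-05, edgeR). In these 3 genes all Plus libraries exceeded all Neg libraries. Gpi1 (0.25), Aldoa (0.31), Pgk1 (0.30) and Eno1 (0.18) were called higher with overlap, and Pfkl (0.23) and Pkm (0.18) were not called. The call of Eno1 was lost with no low-count filter (0.16), and Pkm was called with DESeq2 (0.18) and with a mean of at least 5 CPM (0.20). Pfkm (0.70), Pfkp (2.19), Aldoc (1.58) and Eno2 (1.17) were called higher at low levels. Pfkp, for example, averaged 10.3 ± 6.36 CPM in Tau-GFP Plus libraries and 2.26 ± 2.50 CPM in Tau-GFP Neg libraries, and such genes can pass the low-count filter through the group where they are high. The call of Eno2 was lost without Tau-GFP Plus 3 (1.13) and with no low-count filter (1.15).

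Ldha ranged from 322.6 to 487 CPM (median 349) in Tau-GFP Plus libraries and from 249 to 340 CPM (median 274) in Tau-GFP Neg libraries (log2 fold change 0.40 ± 0.08, adjusted p = 0.00109, edgeR). Ldhb ranged from 275 to 410 CPM (median 334) in Tau-GFP Plus libraries and from 451 to 548 CPM (median 510) in Tau-GFP Neg libraries (log2 fold change -0.56 ± 0.07, adjusted p = 7.07e-06, edgeR). Ldha overlapped between the groups and Ldhb did not. Slc16a3 had 24.1 ± 6.10 CPM in Tau-GFP Plus libraries and 23.6 ± 3.23 CPM in Tau-GFP Neg libraries, a log2 fold change of 0.03 with an interval from -0.28 to 0.33. Slc2a3 (0.29), Pfkfb4 (-0.21) and Pdk3 (0.16) were not called. Pfkfb3 (-0.27) and Pdk1 (-0.35) were called lower, and the call of Pfkfb3 was lost with a mean of at least 5 CPM (-0.25) and that of Pdk1 without Tau-GFP Plus 3 (-0.30).

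Slc2a1 and Slc16a1 rested on 1 library. Slc2a1 ranged from 11.8 to 211 CPM (median 25.9) in Tau-GFP Plus libraries and from 16.7 to 32.6 CPM (median 23.5) in Tau-GFP Neg libraries, and Slc16a1 from 19.01 to 568 CPM (median 41.0) in Tau-GFP Plus libraries and from 19.96 to 94.2 CPM (median 26.3) in Tau-GFP Neg libraries. The highest value of both was in Tau-GFP Plus 3. Neither was called, and without that library their log2 fold changes were 0.42 in place of 1.17 for Slc2a1 and 0.25 in place of 1.501 for Slc16a1. The 8 endothelial markers summed to 3249 CPM in Tau-GFP Plus 3, and over the groups to 56.4 to 3249 CPM in Tau-GFP Plus and 76.1 to 453 CPM in Tau-GFP Neg libraries. In the P9 wild type single-cell libraries, the 51 and 52 endothelial-like cells had 106 and 156 CPM of Slc2a1 and 498 and 601 CPM of Slc16a1, while microglia-like cells of the same libraries had 14.6 and 16.2 CPM of Slc2a1 and 9.88 and 10.3 CPM of Slc16a1 (CPM of each class without scaling factors). The same endothelial-like cells had 13.3 to 29.3 CPM of Pfkp, 6.64 to 9.77 CPM of Pfkm and 0 to 29.3 CPM of Aldoc, and no Eno2. With 51 and 52 cells, and a median of 2054 UMIs per cell in their cluster, these values rest on few UMIs. The cluster had 8 endothelial markers more than 2-fold above the other cells, but also 5 neuronal, 4 mural and 2 oligodendrocyte precursor markers. Microglia-like cells of the 8 single-cell libraries had at most 0.98 CPM of Pfkp, 3.97 CPM of Pfkm and 1.2 CPM of Aldoc. Without Tau-GFP Plus 3, Pfkp (1.94), Pfkm (0.63) and Aldoc (1.72) were still called higher. The part of endothelial cells in the bulk values was not tested.

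**Figure D4:**
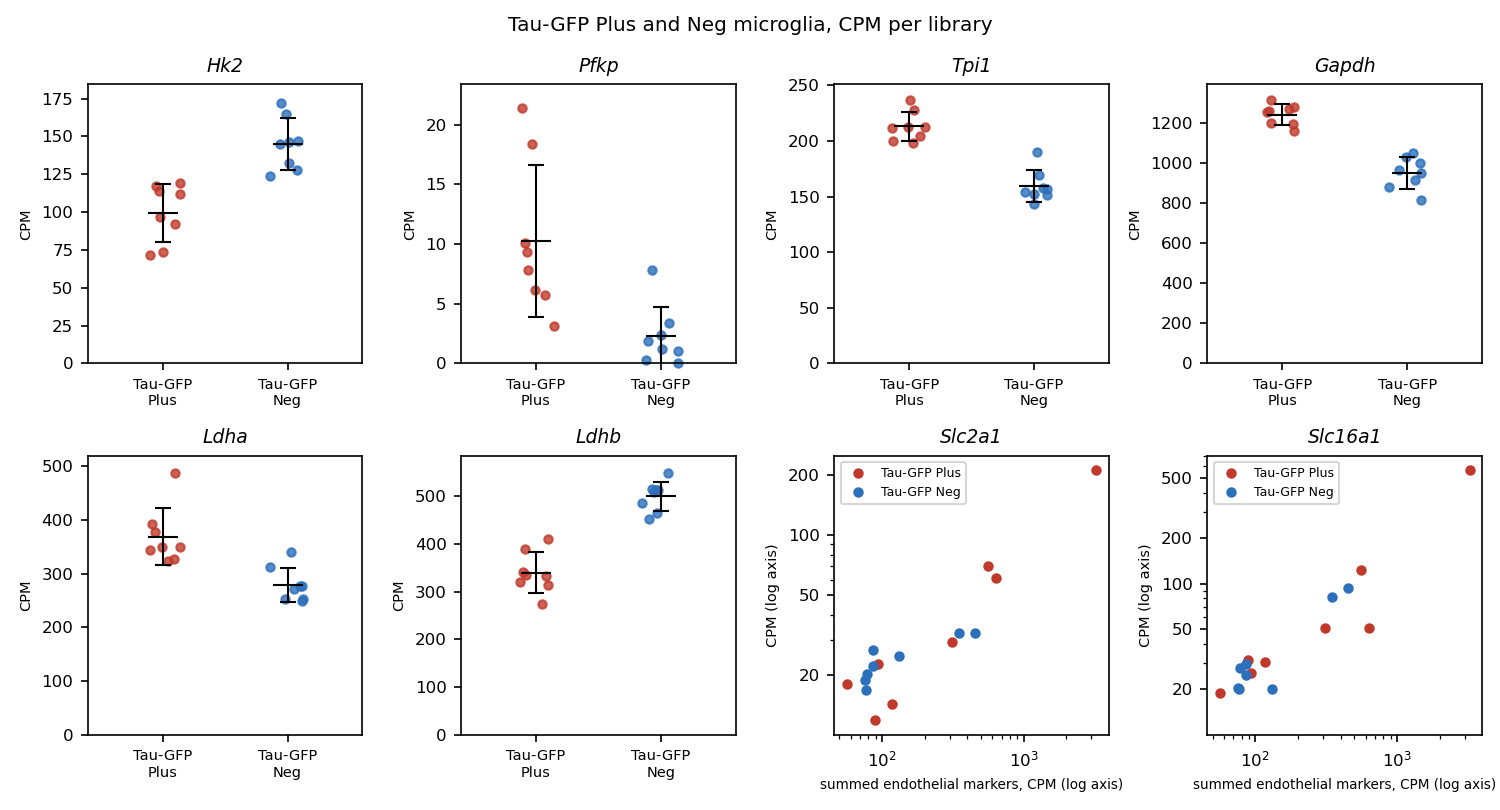
Normalised level (CPM) in each Tau-GFP Plus library (left) and each Tau-GFP Neg library (right), 8 points per group, with bars at the mean ± SD; the Slc2a1 and Slc16a1 panels plot the level against the summed endothelial markers of the same library, both on log axes. Hk2 and Ldhb lie lower and Tpi1 and Gapdh higher in all Plus libraries than in all Neg libraries, while the highest Slc2a1 (211 CPM) and Slc16a1 (568 CPM) points both belong to Tau-GFP Plus 3.

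Markers of other cells moved with the Tau-GFP sort. The 7 border-associated macrophage markers summed to 2724 to 7626 CPM in Tau-GFP Plus libraries and 469 to 730 CPM in Tau-GFP Neg libraries, and the 10 microglia markers to 27841 to 42999 CPM in Tau-GFP Plus libraries and 55212 to 66797 CPM in Tau-GFP Neg libraries. The 10 neuronal markers summed to 56.2 to 157 CPM in Tau-GFP Plus libraries and 6.76 to 15.2 CPM in Tau-GFP Neg libraries, and the 7 mural markers to 45.0 to 321 CPM in Tau-GFP Plus libraries and 6.21 to 37.7 CPM in Tau-GFP Neg libraries. All markers of these 4 lists were detected. The 5 oligodendrocyte precursor markers, 1 of them at 0 in every Tau-GFP Neg library, summed to 9.69 to 29.9 CPM in Tau-GFP Plus libraries and 0.316 to 2.57 CPM in Tau-GFP Neg libraries. The 18 cell cycle markers, all detected, summed to 2271 to 3115 CPM (median 2693) in Tau-GFP Plus libraries and 1709 to 2537 CPM (median 1980) in Tau-GFP Neg libraries, with overlap. In each of the 6 single-cell libraries of P9, cycling microglia-like clusters had more Tpi1, Gapdh and Pgam1 and less Hk2 and Ldhb than the other microglia-like clusters. Of other genes called higher in Tau-GFP Plus libraries, Aldoa and Gpi1 were lower in the cycling clusters in 6 of 6. Eno1 was higher in the cycling clusters in 6 of 6, and Pgk1 and Ldha in 5 of 6. In the P9 wild type single-cell libraries, border-associated macrophage-like cells had 56.5 and 72.2 CPM of Ldhb and 53.1 and 57.1 CPM of Hk2, and microglia-like cells had 498 and 475 CPM of Ldhb and 67.2 and 102 CPM of Hk2. For Tpi1 the same macrophage-like cells had 113 and 99.0 CPM, and the microglia-like cells 173 and 155 CPM. The part of these cells in the bulk result was not tested.

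Of the other pathway genes, 67 were tested in the Tau-GFP comparison, with 11 called higher and 7 lower, smaller shares than the 20.7% and 16.9% of all genes. The hypoxia factor Epas1 (2.76), the carrier Slc2a4 (1.74) and the glycerol phosphate shuttle enzyme Gpd2 (1.40) led the higher side. Epas1 varied widely, at 87.4 ± 105 CPM in Tau-GFP Plus libraries and 12.9 ± 9.79 CPM in Tau-GFP Neg libraries. Slc2a4 was low, at 3.01 ± 0.995 CPM in Tau-GFP Plus libraries and 0.886 ± 0.608 CPM in Tau-GFP Neg libraries. Such a low gene can pass the low-count filter through the group where it is high. Slc2a5, at 289 ± 39.7 CPM in Tau-GFP Plus libraries and 593 ± 56.9 CPM in Tau-GFP Neg libraries (-1.04), Mlxipl (-0.98) and the glucose 6-phosphatase G6pc3 (-0.43) led the lower side.

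At P28, microglia-like cells had less transcript than at P9 of 5 of 6 pentose phosphate genes, of 4 of 5 genes tested of the ATP and NADH yielding steps and of Ldha. UMIs were summed per library over microglia-like cells (2834 and 2898 cells at P28, 2551 and 2214 at P9) and tested with edgeR in 1 fit of all 8 libraries. Of 29 genes tested, 8 were called higher at P28, a share near the 27.5% over all 11599 genes tested, and 15 lower, where 26.2% of all genes were. The groups of 2 separated upward in 9 genes, a smaller share than the 41.8% of all genes, and downward in 17, against 36.4%. The median log2 fold change was -0.36 over these genes and 0.06 over all genes.

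Pentose phosphate genes were lower at P28 in 5 of 6 cases, and none was higher. Tkt had 83.7 and 86.2 CPM at P28, against 178 and 164 CPM at P9 (log2 fold change -1.01 ± 0.07, adjusted p = 4.09e-08, edgeR). Pgls had 140 and 147 CPM at P28, against 264 and 256 CPM at P9 (-0.86 ± 0.06). Taldo1 had 224 and 235 CPM at P28, against 348 and 354 CPM at P9 (-0.61 ± 0.06). Each of these pairs lay well apart. G6pdx (-0.55) and Pgd (-0.28) were also called lower, and Rpia, the ribose 5-phosphate isomerase, was not called (0.36). Among other pathway genes, 6 of the 8 tested in the list of ribose and other pentose phosphate enzymes were lower as well, where 26.2% of all genes were.

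In the ATP and NADH yielding steps, 4 of 5 genes tested were lower. Gapdh had 490 and 528 CPM at P28, against 805 and 809 CPM at P9 (log2 fold change -0.67 ± 0.05, adjusted p = 2.33e-07, edgeR). Pkm had 244 and 257 CPM at P28, against 387 and 390 CPM at P9 (-0.63 ± 0.06). Pgk1 had 12.9 and 9.55 CPM at P28, against 21.3 and 19.2 CPM at P9 (-0.85 ± 0.19). Pgam1 was lower by less (-0.36), and Eno1 was not called (-0.09). Above these steps Gpi1 (-0.86) and Tpi1 (-0.40) were lower, whereas Aldoa was higher, with 409 and 407 CPM at P28, against 270 and 277 CPM at P9 (0.58 ± 0.06).

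Among the 8 genes called higher, Hk2 had 209 and 248 CPM at P28, against 69.1 and 107 CPM at P9 (log2 fold change 1.38 ± 0.14, adjusted p = 2.66e-06, edgeR), the largest rise of the set. Pfkl had 52.0 and 53.0 CPM at P28, against 29.2 and 28.3 CPM at P9 (0.87 ± 0.14). Both pairs were fully apart. Slc2a1 (0.56) and Pfkfb4 (0.98) were higher and Hk3 (-0.37) lower, and Slc2a3, Hk1, Pfkm and Pfkfb3 were not called. Pfkp, Aldoc, Eno2 and Pdk4 had too few UMIs to be tested in the single-cell libraries. Slc16a3 had 36.6 and 34.7 CPM at P28, against 20.3 and 18.7 CPM at P9 (0.87 ± 0.11), while Slc16a1 had 3.98 and 5.78 CPM at P28, against 10.1 and 10.7 CPM at P9 (-1.09 ± 0.22). The carrier MCT4 was thus higher and MCT1 lower. Pdk1 (0.78) was higher and Pdk3 (-0.87) lower.

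Ldha had 184 and 191 CPM at P28, against 324 and 312 CPM at P9 (log2 fold change -0.76 ± 0.05, adjusted p = 8.26e-08, edgeR). Ldhb had 656 and 668 CPM at P28, against 511 and 494 CPM at P9 (0.40 ± 0.05, adjusted p = 1.95e-05, edgeR). The direction of both genes was the reverse of that in the IL-33 and Tau-GFP comparisons. The log2 ratio of Ldha to Ldhb, for which no test was made, was -1.84 and -1.80 at P28, and -0.66 in both P9 libraries. It ranged from 4.52 to 5.08 in IL-33 cultures and from 4.08 to 4.48 in Medium cultures, and from -0.32 to 0.83 in Tau-GFP Plus and from -1.04 to -0.53 in Tau-GFP Neg libraries. In CPM of the bulk counts this ratio also carries the lengths of the genes, so its size can be compared within an assay and not between them.

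**Figure D5:**
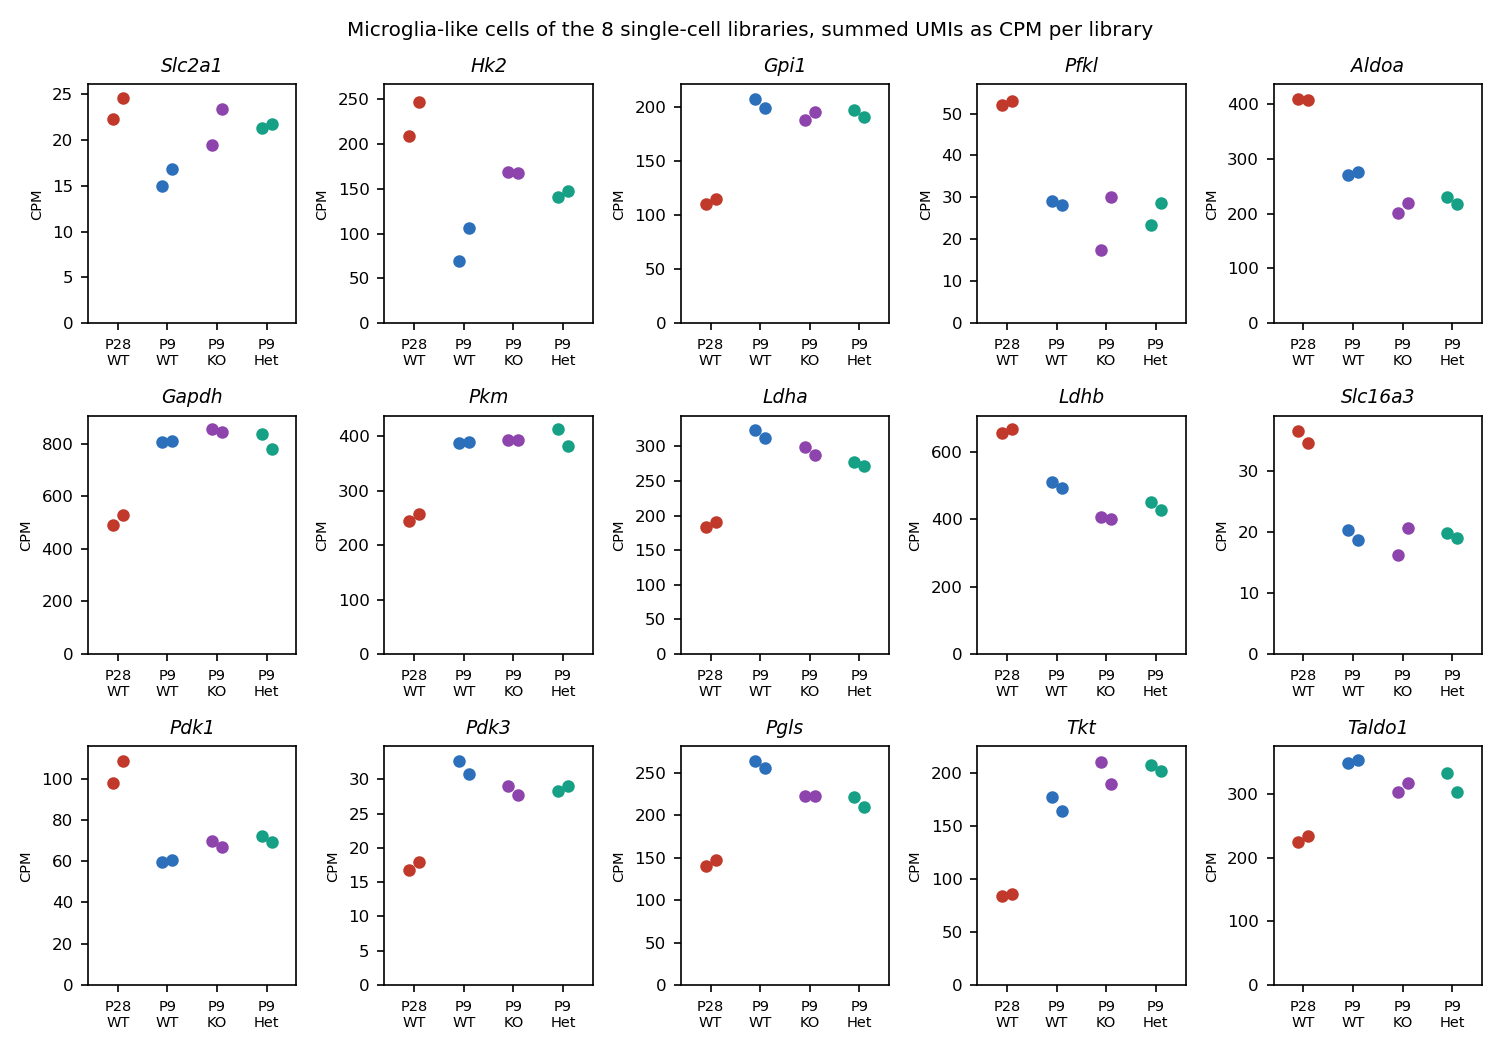
Normalised level (CPM of summed UMIs, linear axes from 0) of microglia-like cells in each of the 8 single-cell libraries, 1 point per library and 2 per group. Hk2, Slc16a3 and Ldhb are higher and Gapdh, Ldha and Tkt lower in both P28 libraries than in both P9 WT libraries, and the ST2 KO points lie near the ST2 Het points.

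Different clusters held most of the class at the 2 ages, clusters 0 and 3 at P28 (1715 and 1753, and 752 and 770 cells) and cluster 1 (1150 and 876 cells) with the cycling clusters at P9. Cells in cycling clusters were 0% at P28, and 30.2% and 31.2% at P9. Without the cycling clusters the counts were again 8 higher and 15 lower. Within the 6 P9 libraries of any genotype, cycling clusters had less Ldhb (280 to 377 CPM) than the other microglia-like clusters (451 to 565 CPM), and less Aldoa and Hk2, in 6 of 6 libraries. They had more Gapdh (919 to 1039 CPM) than the other clusters (686 to 781 CPM), and more Tpi1, Pgam1, Eno1, Tkt and Pdk3, again in 6 of 6. Gpi1, Pgls, Pgd and Hk3, which were called lower at P28, were lower in the cycling clusters in 6 of 6. So were Pfkl, Pfkfb4 and Pdk1, which were called higher at P28. Border-associated macrophage markers summed to 33.8 and 27.4 CPM at P28 and 288 and 301 CPM at P9, and the 9 neutrophil markers to 90.6 and 57.3 CPM at P28 and 2.24 and 5.93 CPM at P9. Of the 8 astrocyte markers, 5 were at 0 in both P28 libraries, and the sum of the list (179 and 183 CPM at P28, 37.1 and 37.9 CPM at P9) came almost wholly from Slc1a3, with 178 and 183 CPM at P28 and 34.9 and 34.1 CPM at P9. Slc1a3 is also among the leading genes of the microglia-like clusters 0 and 10. Their part in the result was not tested. The calls of Hk3 and Pgd were lost without P9 replicate 1 (-0.29 and -0.20) and without P28 replicate 2 (-0.33 and -0.24). Without P9 replicate 1, Hk1 was called higher at 0.96, in place of 0.48 and no call.

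Of the other pathway genes, 65 were tested between the ages, with 19 higher and 18 lower at P28, shares near the 27.5% and 26.2% of all genes. The glycerol phosphate dehydrogenase Gpd1 (1.54), Eno3 (1.39) and the HIF regulator Vhl (1.12) led the higher side, and Slc2a6 (-2.39), the growth factor-regulated factor Myc (-1.64) and the deoxyribose phosphate aldolase Dera (-1.10) the lower. Slc2a6 was low at both ages, averaging 0.669 CPM at P28 and 3.58 CPM at P9. Such a gene can pass the low-count filter through the group where it is high.

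In ST2 KO against ST2 Het pups, no glycolytic or pentose phosphate gene was called by edgeR's quasi-likelihood test among the 29 tested, where 0.31% of all 11599 genes were called higher and 0.302% lower. DESeq2 called none either, and 3 of them, Hk3, Pfkfb4 and Ldhb, had an unadjusted p under 0.05, as did 1153 of all genes. The groups separated upward in 6 genes and downward in 5, shares near the 18.8% and 19% of all genes. The median log2 fold change was -0.02 over these genes and -0.00 over all genes. Il1rl1, the targeted gene, had 30 and 28 UMIs in 639 and 775 ST2 KO cells, and 37 and 46 UMIs in 1248 and 1232 ST2 Het cells. UMIs at the end of a transcript can come from outside a deleted part, so this does not check the labels.

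Hk3 had 36.4 and 41.7 CPM in ST2 KO libraries, against 46.6 and 52.2 CPM in ST2 Het libraries. Its log2 fold change was -0.34 with an interval from -0.56 to -0.11 (adjusted p = 0.267, edgeR). Ldhb had 406 and 401 CPM in ST2 KO libraries, against 453 and 427 CPM in ST2 Het libraries, with a log2 fold change of -0.13 and an interval from -0.24 to -0.01 (adjusted p = 0.437, edgeR). Both pairs were apart. Ldha had 299 and 288 CPM in ST2 KO libraries, against 277 and 272 CPM in ST2 Het libraries, a log2 fold change of 0.10 with an interval from -0.02 to 0.22. The intervals of the abundant core enzymes were narrow. For Gpi1 the interval ran from -0.14 to 0.11, for Gapdh from -0.05 to 0.18, for Pgam1 from -0.14 to 0.12, for Eno1 from -0.16 to 0.10 and for Pkm from -0.14 to 0.10. Slc2a1 and Slc16a3 had wider intervals, from -0.30 to 0.29 and from -0.37 to 0.24. Pgk1, which is X-linked, had 27.1 and 16.98 CPM in ST2 KO libraries, against 16.02 and 16.8 CPM in ST2 Het libraries, with an interval from -0.02 to 0.84.

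None of the 65 other pathway genes tested was called between ST2 KO and ST2 Het, where 0.31% of all genes were called higher and 0.302% lower. The libraries differed in the sex of their cells. Xist, the X inactivation RNA of female cells, had no UMI in 23.8% and 27.6% of ST2 KO cells, and in 1.44% and 0.731% of ST2 Het cells, and the Y-linked gene Eif2s3y had 88 and 124 UMIs in ST2 KO libraries and 0 in both ST2 Het libraries. Mural markers summed to 34.7 and 31.8 CPM in ST2 KO libraries and 11.02 and 17.8 CPM in ST2 Het libraries. Endothelial markers summed to 67.9 and 75.0 CPM in ST2 KO libraries and 44.7 and 40.4 CPM in ST2 Het libraries. Immediate early genes summed to 1917 and 1778 CPM in ST2 KO libraries and 2484 and 2736 CPM in ST2 Het libraries. Their part in the values above was not tested.

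Several of these genes have close copies in the genome. Gapdh, Pgk1, Ldha, Tpi1, Pgam1 and Aldoa have processed pseudogenes and Eno1 a near-identical copy, Gm5506, and reads shared with such copies can be split by the counting, so their levels are uncertain. The other genes were not checked for such copies.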

How the data were processed

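Cultured microglia and microglia sorted by Tau-GFP were deposited as RSEM expected counts, from Bowtie2 alignments per the submitters' processing notes. Of these estimated counts, 25.3% were not whole, and they were rounded before testing. The TMRM libraries were deposited as FPKM from TopHat2 2.0.10 and Cufflinks 2.0.2, per the submitters' processing notes, which makes every value relative to its library and leaves depth unknown. The single-cell UMI counts were deposited as 1 matrix from Cell Ranger. The genome build named is mm10, and no version of the other tools is given in the sources used here. Of 35 columns in the bulk count table, 30 matched the labels and 5 were not used.

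Expected counts and UMI sums were tested with edgeR 4.0.16 (R 4.3.3, TMM scaling, filterByExpr, quasi-likelihood F test), the culture and the Tau-GFP libraries in separate fits and the single-cell sums in 1 fit of 8 libraries. Levels in CPM come from that scaling. FPKM were tested with limma 3.58.1 (trend) on log2(FPKM + 1), where the mean over libraries reached 1 FPKM; 16 values with the status FAIL were set to missing. All p-values were adjusted over all genes tested by the Benjamini-Hochberg method. Cells needed 500 genes or more and a mitochondrial UMI share under 10%, and were clustered with scanpy 1.11.5 and leidenalg 0.10.2 into 18 clusters, named from fixed markers; no doublet caller was run. The design text states 9391 wild type cells, and the matrix holds 11424 wild type barcodes, of which 11276 passed this filter. The barcode prefixes of the first ST2 KO and ST2 Het libraries carry the word redo, which the labels do not explain. The fits were tested on simulated counts, and for TMRM on simulated log2(FPKM + 1) values, with changes placed only in well expressed genes. Changes of 2-fold were recovered in 98.9% of cases for IL-33 (10815 genes), 87.4% for Tau-GFP (12138), 95.2% for TMRM (10537), 95.7% for P28 and 87.2% for ST2 KO (11599 each). Changes of 1.5-fold were recovered in 87.4% of cases for IL-33, 61.9% for Tau-GFP, 77.1% for TMRM, 72.6% for P28 and 70.8% for ST2 KO.

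All 33 genes are accounted for, those called are named with values, and of the other pathway genes the called ones with the 3 largest changes in each direction are named per comparison. The genes and lists were chosen with earlier results of these data known. Alternatives covered scaling, DESeq2 1.42.0, filters, pseudocounts, cells, the replicate block and leaving out libraries. One other pathway gene that the naming rule selects is not reported here.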

Additional observations from a re-analysis of the deposited data

Results flagged for a closer look

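In groups of 7 to 10 libraries, a value was marked when its gap to the nearest other library of its group was large against the whole range of that group. Of 182 gene and group pairs examined, 28 were marked, and chance marks about 1 in 20.

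Tau-GFP Plus 3 held the highest Slc2a1 (211 CPM, next 70.5), Slc16a1 (568 CPM, next 122), Hk1 (43.7 CPM, next 26.9) and Ldha (487 CPM, next 392.2) of its group. Tau-GFP Plus 1 held the lowest Pgam1 (181 CPM, next 202) and the lowest Pgls (57.4 CPM, next 70.2). In Tau-GFP Neg libraries the marked values were Hk1 in replicate 2 (37.1 CPM), Pfkp in replicate 8 (7.83 CPM) and Eno1 in replicate 6 (393 CPM), each the highest, and the lowest Pgd in replicate 5 (162 CPM).

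TMRM high 1 held the highest Tpi1 (401 FPKM, next 329), Eno1 (328 FPKM, next 299.9) and Ldha (647 FPKM, next 543) of its group, TMRM high 2 the lowest Gapdh (951 FPKM, next 1127) and TMRM high 6 the highest Pfkp (2.43 FPKM). TMRM low 3 held the highest Hk3 (58.0 FPKM), Tpi1 (197 FPKM), Pkm (342 FPKM) and Taldo1 (165 FPKM). TMRM low 2, the library with the most choroid plexus marker, held the highest Pfkp (9.30 FPKM, next 3.59), Pgk1 (109 FPKM, next 80.9) and Eno1 (220.0 FPKM, next 161).

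Among the cultures, IL-33 1 held the highest Slc2a3 (10.1 CPM, next 6.70) and G6pdx (210 CPM, next 181), IL-33 7 the highest Pfkp (50.3 CPM) and IL-33 3 the lowest Tpi1 (750 CPM, next 836). Medium 2 held the highest Pfkp (48.7 CPM) and Pgam1 (1419 CPM, next 1289).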

How the results depend on the processing

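Whether the replicate numbers pair the libraries is not stated and could not be decided. The deviations of same-numbered libraries from their group means correlated at -0.15 to 0.33 in Tau-GFP, -0.19 to 0.12 in TMRM and -0.065 to 0.29 with IL-33. In the groups of 2 single-cell libraries this correlation cannot tell pairs. With the replicate block, 16 genes of the pathway were higher and 2 lower with IL-33. The block gave 13 and 5 in Tau-GFP Plus, 14 and 0 in TMRM high, 9 and 16 at P28, and 0 and 0 in ST2 KO. The block ended the calls of G6pdx with IL-33, of Eno2 in Tau-GFP Plus and of Pfkfb3, Pgd, Pgls and Taldo1 in TMRM high, and added Hk3 with IL-33, Pfkl and Pkm in Tau-GFP Plus, and Eno1 and Rpia at P28. With IL-33, 2 genes (Hk3 added) in place of 1 were lower with RLE scaling, DESeq2, a mean of at least 5 CPM and the block. In Tau-GFP Plus 3 in place of 5 were lower with a mean of at least 5 CPM (Hk3 and Pfkfb3 lost) and, chosen after seeing the data like the other left-out TMRM and Tau-GFP libraries, without Plus 3 (Hk3 and Pdk1 lost), where Hk1 turned to -0.076. Over all genes, 688 were lower in TMRM high with a mean of at least 5 FPKM and 1632 with median-of-ratios scaling, in place of 1054. In TMRM high, signs turned for Slc16a1 with a pseudocount of 5 (-0.0098), with median-of-ratios scaling (-0.081) and with the block (-0.049), for Hk3 (-0.088) and Ldhb (-0.064) with that scaling, and without TMRM low 2 and 7 for Hk1 (0.087) and Hk3 (-0.031).

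At P28 the median log2 fold change of the pathway, -0.36, was -0.39 with RLE scaling and with DESeq2, -0.40 with only the 4 libraries compared and with their block, -0.31 with all cells, -0.33 with a stricter cell filter and -0.45 to -0.28 with 1 library left out; DESeq2 called 1784 of all genes higher, in place of 3190. Pfkfb3 was -0.059 without cycling clusters and -0.062 to 0.20 with 1 library left out, and Pfkm -0.59 to 0.042.

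In ST2 KO against ST2 Het, 1 gene of the pathway (Rpia) was higher with no low-count filter, where 256 of all genes were higher and 115 lower, in place of 36 and 35. The block gave 244 and 79 and all cells 23 and 21. With 1 library left out, which leaves a lone library assumed to vary like the others, 13 to 124 were higher and 11 to 35 lower, and the median of the pathway was -0.045 to 0.010. Signs of uncalled genes turned: Slc2a1 with RLE scaling (0.0033), a mean of at least 5 CPM (0.0022) and a stricter cell filter (0.025), Hk1 with all cells (0.012), and without cycling clusters Hk1 (0.22) and Slc16a1 (0.060). With 1 library left out the log2 fold changes ran from -0.15 to 0.12 for Slc2a1, -0.26 to 0.22 for Hk1, -0.052 to 0.012 for Gpi1, -0.58 to 0.20 for Pfkl, -0.012 to 0.091 for Tpi1, -0.033 to 0.017 for Pgam1, -0.081 to 0.022 for Eno1, -0.074 to 0.045 for Pkm, -0.41 to 0.21 for Slc16a1, -0.26 to 0.092 for Slc16a3, -0.046 to 0.014 for Pdk3, -0.079 to 0.20 for G6pdx, -0.11 to 0.034 for Tkt and -0.10 to 0.040 for Taldo1. The cause of these shifts was not tested. The core calls that separate the groups kept their direction and threshold in all alternatives run for IL-33 and TMRM. With 2 libraries a group, ST2 KO against ST2 Het recovered 70.8% of simulated 1.5-fold changes, so smaller differences may not have been detectable.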

Other observations

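The cultured and the freshly sorted libraries share the bulk count table but differ in preparation, strain background and age, so no test was made between them. Scaled together, Slc16a3 averaged 252 CPM in IL-33, 202 CPM in Medium, 20.9 CPM in Tau-GFP Plus and 20.6 CPM in Tau-GFP Neg libraries. Aldoa averaged 2568 CPM in IL-33, 2312 CPM in Medium, 250 CPM in Tau-GFP Plus and 202 CPM in Tau-GFP Neg libraries. Ldhb lay the other way, at 84.2 CPM in IL-33, 103 CPM in Medium, 295 CPM in Tau-GFP Plus and 435 CPM in Tau-GFP Neg libraries.

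Some genes have levels that differ between assays. Rpia was under 1 CPM in every bulk count library and between 14.5 and 35.4 CPM in the 8 single-cell libraries, and Pgk1 was between 102 and 803 CPM in the bulk count libraries and between 9.55 and 27.1 CPM in the single-cell libraries. These tables were normalised separately, and the cause was not tested. Gm5506, the near copy of Eno1, ranged from 34.9 to 136 CPM in IL-33, 53.0 to 178 CPM in Medium, 8.28 to 63.2 CPM in Tau-GFP Plus and 14.1 to 53.5 CPM in Tau-GFP Neg libraries.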
